A study of Mus musculus with 4 samples.

Results

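Piezo1, Pkd1 and Vgll4, genes of load sensing and of its transcriptional output, were followed in bone of exercised and sedentary mice. They were taken by gene symbol from the deposited table, and all 3 were found among its 1175 genes. The exercise group was wild-type mice run on a treadmill (medium intensity, begun at 8 weeks of age and kept up for 5 weeks). The sedentary group was wild-type mice of equal age that were not run. The labels give no strain, and the study describes its wild-type running mice as C57BL/6J. RNA was taken at 13 weeks from whole bone after the marrow had been flushed, so each library mixes all cells left in the tissue. There were 4 libraries, 2 per group. Nothing in the labels ties the 2 libraries of a group to separate animals, and p-values then measure only the spread between libraries, which may be technical.

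Piezo1 encodes a large ion channel of the plasma membrane that opens when the membrane is stretched and lets calcium in. In mice, cells of the osteoblast lineage need it to keep bone mass and to respond to load. Pkd1 encodes polycystin 1, a receptor-like membrane protein that forms a complex with the channel protein polycystin 2 on the primary cilium and at the cell surface, and its loss in osteoblasts and osteocytes lowers bone mass in mice. Stiffness, stretch and flow also act on the coactivators YAP and TAZ, which enter the nucleus and bind TEAD transcription factors. Vgll4, a vestigial-like cofactor, binds the same TEAD proteins through its Tondu domains and competes with YAP for them. In mouse osteoblasts it has been shown to relieve the block that TEAD places on Runx2, the main transcription factor of the lineage.

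On mm10, the GENCODE M21 annotation places Piezo1 on the minus strand of chromosome 8 (122481698 to 122551329), Pkd1 on the plus strand of chromosome 17 (24549834 to 24596508) and Vgll4 on the minus strand of chromosome 6 (114860628 to 114969994). The promoter windows of all 3 genes were matched in a RefSeq table (build GRCm38.p6, which has the coordinates of mm10), from 250 bases before to 50 after 1 RefSeq start per gene. They are shown because one of them carries the hexamer that TEAD proteins recognise, CATTCC or its reverse complement GGAATG, given in capitals (5′ to 3′ on the strand of the gene).

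Piezo1, chr8:122551280-122551579, minus strand: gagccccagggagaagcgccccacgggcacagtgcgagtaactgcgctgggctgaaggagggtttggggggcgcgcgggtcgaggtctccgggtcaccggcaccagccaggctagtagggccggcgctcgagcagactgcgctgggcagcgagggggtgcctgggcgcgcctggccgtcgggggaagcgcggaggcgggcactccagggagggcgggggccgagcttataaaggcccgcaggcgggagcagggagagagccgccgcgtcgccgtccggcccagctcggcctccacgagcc

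Pkd1, chr17:24549700-24549999, plus strand: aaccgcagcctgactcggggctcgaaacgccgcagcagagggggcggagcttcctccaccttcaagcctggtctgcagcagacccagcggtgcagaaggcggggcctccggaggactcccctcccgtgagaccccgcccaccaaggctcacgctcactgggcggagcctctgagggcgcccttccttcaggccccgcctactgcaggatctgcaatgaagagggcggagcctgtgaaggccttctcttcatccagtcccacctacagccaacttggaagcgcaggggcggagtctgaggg

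Vgll4, chr6:114969154-114969453, minus strand: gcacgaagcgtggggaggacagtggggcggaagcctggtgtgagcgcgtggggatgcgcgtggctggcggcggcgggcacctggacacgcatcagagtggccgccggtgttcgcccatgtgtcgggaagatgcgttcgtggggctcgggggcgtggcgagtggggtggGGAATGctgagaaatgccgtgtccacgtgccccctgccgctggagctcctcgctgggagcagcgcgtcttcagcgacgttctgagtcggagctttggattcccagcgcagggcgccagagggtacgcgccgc

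The window of Vgll4 held 1 TEAD hexamer, which began 82 bases before the start, and the windows of Piezo1 and Pkd1 held 0. Of 32851 promoter windows of this length, 14.7% held the hexamer on either strand. The AP-1 heptamer (TGACTCA or TGAGTCA) was in none of the 3 windows and in 5.2% of all windows. The GC box hexamer GGGCGG, searched on both strands, matched 5 times in the Pkd1 window and 1 time in each of the other windows, and 35.7% of all windows held it. Such matches describe the letters of these windows, and no binding was measured. Each gene has 1 window, while GENCODE annotates 1 start of coding transcripts for Piezo1, 5 for Pkd1 and 3 for Vgll4, so other starts of Pkd1 and Vgll4 were not searched.

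The counts of the 1175 genes summed to between 1160883 and 2680636 in the exercise libraries and between 516963 and 594856 in the sedentary libraries. The mean count was higher in exercise for every one of the 1175 genes (median 3.82 times, lowest 2.48 times). The rule that chose them is not given, and column totals are not library totals. Each value below called a share is therefore a gene's part of the counts of the table, per 1000000 counts, and a share ratio compares exercise with sedentary bone. It says whether a gene stood higher or lower among the listed genes, not in the whole transcriptome. With column totals as the scaling, the median log2 share ratio of all listed genes was 0.14, and with the size factors of DESeq2 it was 0.04. In bulk bone, fewer cells of a type and less RNA per cell cannot be told apart. Of 12 osteocyte and osteoblast markers Sost alone was listed, with shares of 786 and 696 in the exercise libraries, against 723 and 667 in the sedentary libraries.

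Vgll4 had the highest share ratio of the 3 genes. Its estimated counts were 168.71 and 725.21 in the exercise libraries (replicates 1 and 2), against 29.86 and 38.22 in the sedentary libraries. As shares these were 145.3 and 270.5 in exercised bone, against 50.2 and 73.9 in sedentary bone. Both exercise shares were thus above both sedentary ones, as in 36.0% of all listed genes. The exact 95% counting intervals also lay apart, at 124 to 169 and 251 to 291 in exercise and 34.0 to 72.0 and 52.0 to 101 in sedentary bone. They cover counting error only, and how many other listed genes have intervals apart was not counted. The mean share was 208 ± 88.5 in exercised and 62.1 ± 16.8 in sedentary bone (SD, n = 2 each), a ratio of 3.35. In the quasi-likelihood test of edgeR the log2 share ratio was 1.75 ± 0.45 (SE, 95% interval 0.64 to 2.87), with a two-sided unadjusted p of 0.00911 and an adjusted p of 0.319 over the 1175 genes. Vgll4 thus passed the unadjusted thresholds that the study's methods give (p under 0.05 and a log2 ratio over 0.25) but not adjustment. In edgeR the log2 share ratio was 1.50 without sedentary replicate 1, where the call was lost, and 2.04 without sedentary replicate 2. The call was also lost with limma-voom (log2 1.82, unadjusted p = 0.0893). Without exercise replicate 1 the log2 share ratio of Vgll4 in edgeR was 2.14, and without exercise replicate 2 it was 1.24. In those fits the spread came from the sedentary pair alone, so their p-values are not given. The direction of Vgll4 held under every setting tried.

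Pkd1 stood higher in exercised bone by a smaller step than Vgll4, and did not pass. It had 366.81 and 1242.39 estimated counts in the exercise libraries, against 161.72 and 139.55 in the sedentary ones. Its shares of 316.0 and 463.5 in exercise stood above the 271.9 and 269.9 of sedentary bone, where the libraries differed by less than their counting error. The mean was 390.0 ± 104 in exercised and 271 ± 1.36 in sedentary bone (SD, n = 2 each), 1.44 times higher. The log2 share ratio was 0.52 ± 0.23 (95% interval -0.06 to 1.11), with an unadjusted p of 0.0692 and an adjusted p of 0.446 in edgeR. It was 0.77 (unadjusted p = 2.95e-06) without exercise replicate 1 and 0.22 without exercise replicate 2. A fit with 1 exercise library measures no spread among exercise libraries and borrows that of the sedentary pair.

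For Piezo1, exercise replicate 1 was hardly above sedentary bone. The counts of the channel gene were 593.01 and 2152.02 in exercise, against 289.93 and 261.32 in sedentary bone, the highest of the 3 genes in every library. Its share was 510.8 in exercise replicate 1 and 802.8 in exercise replicate 2, against 487.4 and 505.5 in the sedentary libraries. The groups did not overlap, but exercise replicate 1 exceeded the upper sedentary library by less than counting error (intervals 471 to 554 and 445 to 570). The mean was 657 ± 206 in exercised and 496 ± 12.8 in sedentary bone (SD, n = 2 each), 1.32 times higher. The log2 share ratio of 0.41 ± 0.25 (95% interval -0.21 to 1.02) did not pass in edgeR (unadjusted p = 0.153, adjusted p = 0.478). The ratio rested on exercise replicate 2, since without that library it was 0.04, and without exercise replicate 1 it was 0.69.

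**Figure D1:**
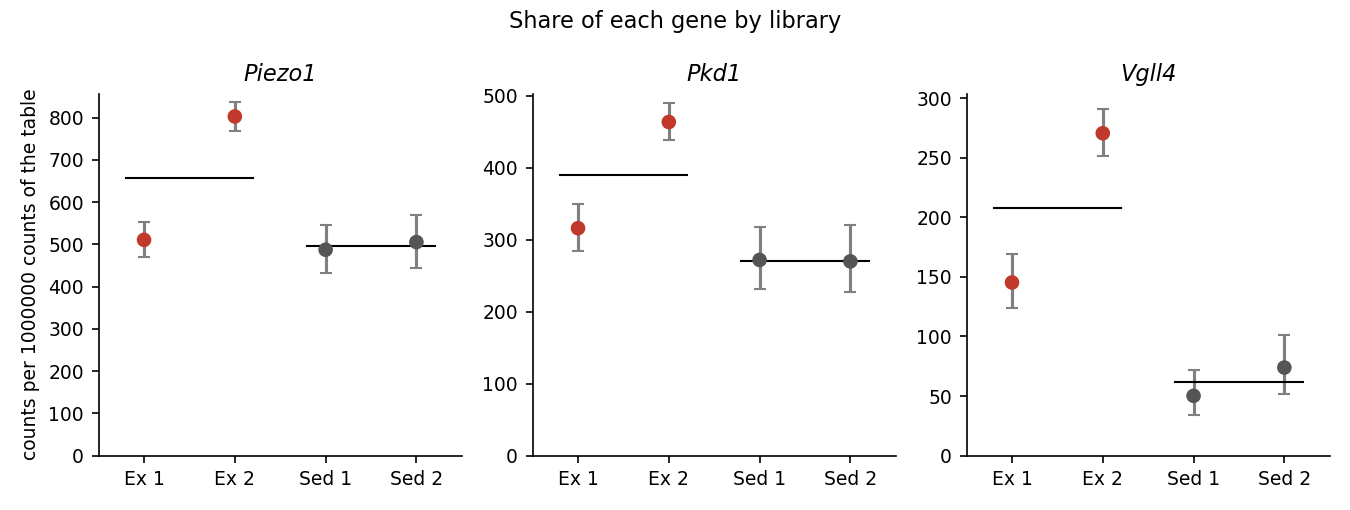
Share of Piezo1, Pkd1 and Vgll4 in each library, in counts per 1000000 counts of the table, with exercise libraries (Ex) in red and sedentary libraries (Sed) in grey. Bars are exact 95% counting intervals and black lines are group means (n = 2); Vgll4 stands at 145.3 and 270.5 in exercise against 50.2 and 73.9 in sedentary bone, and Piezo1 in Ex 1 (510.8) is level with the sedentary libraries.

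Of the 3 genes, 1 (Vgll4) had a higher share at the unadjusted thresholds, where 11.3% of all listed genes did, and 0 passed an adjusted p of 0.05, where 0.340% of the listed genes did. By the Wald test of DESeq2, 0 of the 3 passed adjustment as well, where 36 of the 1175 listed genes did. Vgll4 had an adjusted p of 0.0631 in that test. In all 3 genes, and in 36.0% of all listed genes, neither exercise share was as low as the higher sedentary share. Only genes with higher exercise counts were listed. Ranked among all listed genes by log2 share ratio, Vgll4 was at percentile 87.1, Pkd1 at 72.1 and Piezo1 at 68.3. In raw counts, the exercise mean was 13.1 times the sedentary mean for Vgll4, 5.34 times for Pkd1 and 4.98 times for Piezo1.

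All 3 genes were higher in exercise replicate 2 than in exercise replicate 1. The share in replicate 2 was 1.86 times that in replicate 1 for Vgll4, 1.47 times for Pkd1 and 1.57 times for Piezo1. Of all listed genes, 62.6% moved the same way between these libraries, and the 3 genes sat at percentiles 84.0, 74.5 and 77.8 of that difference. Set against the sedentary mean, exercise replicate 1 gave log2 values of 1.23 for Vgll4, 0.22 for Pkd1 and 0.04 for Piezo1, where the median listed gene had 0.05. Exercise replicate 2 gave 2.12, 0.77 and 0.69, where the median was 0.19. Vgll4 was therefore near the same percentile in both exercise libraries (91.6 and 90.5), while Piezo1 stood at percentile 49.5 in replicate 1 and 73.1 in replicate 2.

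**Figure D2:**
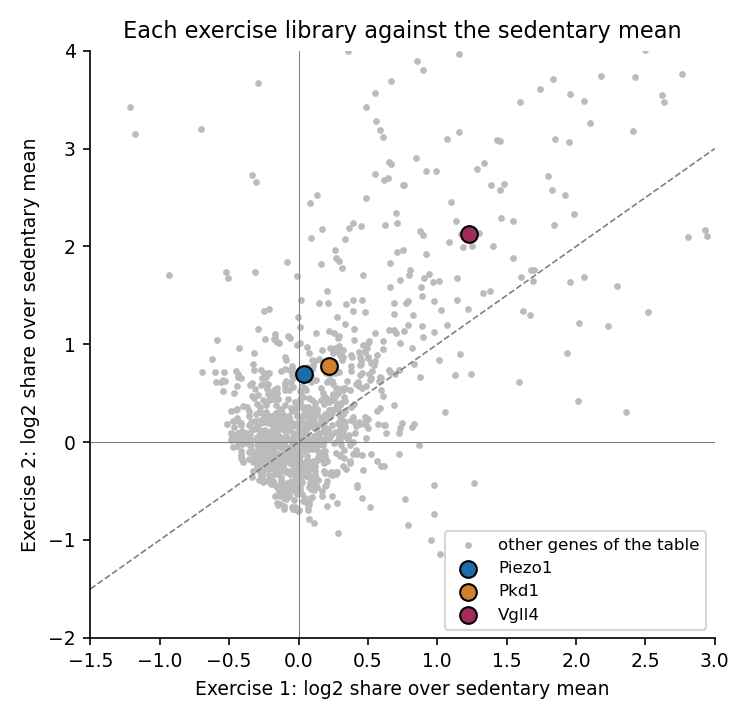
Log2 share over the sedentary mean in exercise replicate 1 (horizontal) and exercise replicate 2 (vertical), each grey point being a listed gene; 50 genes lie beyond the axes and 32 had no sedentary counts and are not drawn. The dashed line marks equal values; Vgll4 (1.23 and 2.12) is far from the origin on both axes, and Piezo1 (0.04 and 0.69) only on the vertical one.

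A ratio of 2 genes inside 1 library needs no library total, and its value does not move with depth or with which other genes are listed. Both genes of a ratio are still listed genes, all of which had higher mean counts in exercise. The ratios are therefore not free of that choice. Per 100 Piezo1 counts there were 28.4 and 33.7 Vgll4 counts in the exercise libraries, against 10.3 and 14.6 in the sedentary libraries. Their 95% counting intervals did not overlap between groups (23.9 to 33.9 and 30.9 to 36.7, against 6.85 to 15.1 and 10.1 to 20.5). How many other listed genes have such intervals apart was not counted. The log2 ratio of Vgll4 to Piezo1 differed by 1.34 between the group means, with an SD of 0.17 in exercise and 0.36 in sedentary bone (n = 2 each), a 2.52-fold difference. It was between 1.08 and 1.59 with each library left out. Of the other listed genes, 20.9% likewise had a ratio to Piezo1 higher in both exercise libraries than in both sedentary ones.

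Against Pkd1, Vgll4 gave a like difference. There were 46.0 and 58.4 Vgll4 counts per 100 Pkd1 counts in exercise, against 18.5 and 27.4 in sedentary bone, a log2 difference of 1.20 (2.30-fold), and 17.3% of the other listed genes were likewise higher against Pkd1. The counting interval of exercise replicate 1 (38.1 to 55.4) touched that of sedentary replicate 2 (18.4 to 39.1). Pkd1 and Piezo1 differed less from each other. There were 61.9 and 57.7 Pkd1 counts per 100 Piezo1 counts in exercise, against 55.8 and 53.4 in sedentary bone. These values did not overlap between the groups, but they differed by 0.13 on the log2 scale and their counting intervals overlapped throughout. With 2 libraries a side, no exact permutation p could fall below 0.33, and these ratios were left untested.

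**Figure D3:**
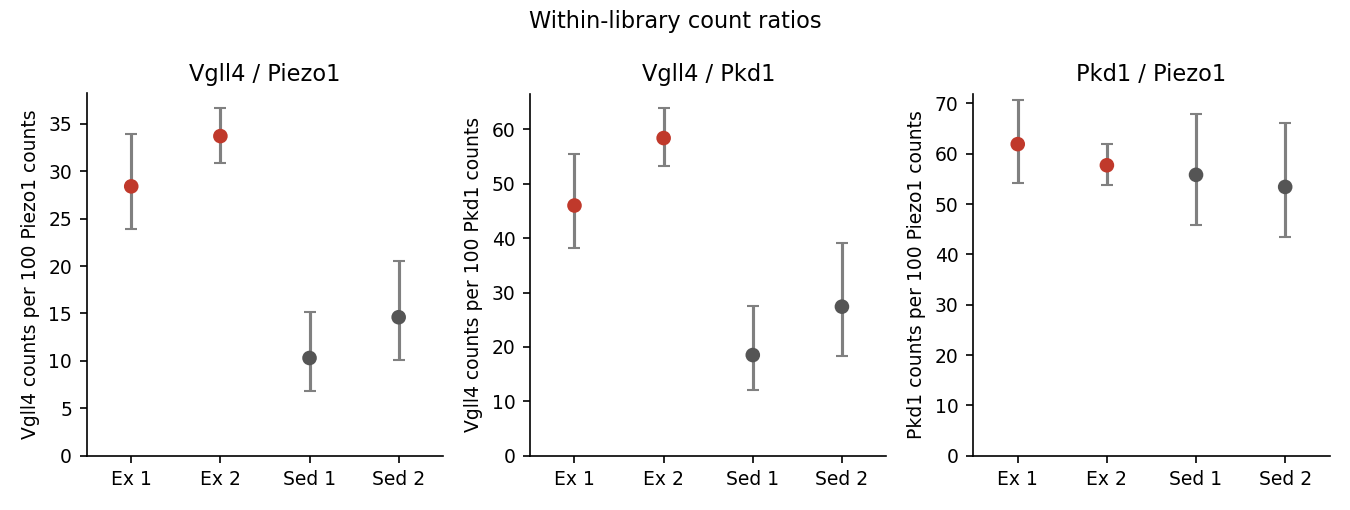
Count ratios within each library for Vgll4 to Piezo1, Vgll4 to Pkd1 and Pkd1 to Piezo1, as counts per 100 counts of the second gene, with exercise libraries (Ex) in red and sedentary libraries (Sed) in grey. Bars are exact 95% counting intervals; Vgll4 per 100 Piezo1 counts is 28.4 and 33.7 in exercise against 10.3 and 14.6 in sedentary bone, while the ratio of Pkd1 to Piezo1 stays between 53.4 and 61.9.

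Counts were also set against Sost, which osteocytes make as an inhibitor of Wnt signalling. Sost is itself known to respond to load, so these ratios do not measure osteocyte content. There were 18.5 and 38.8 Vgll4 counts per 100 Sost counts in exercise, against 6.94 and 11.1 in sedentary bone, and 26.9% of the other listed genes were likewise higher against Sost. For Piezo1 the values were 65.0 and 115 in exercise, against 67.4 and 75.7 in sedentary bone. For Pkd1 they were 40.2 and 66.5, against 37.6 and 40.4. The groups overlapped for Piezo1 and Pkd1, since exercise replicate 1 was below sedentary replicate 2 in both, and did not overlap for Vgll4.

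Of 163 genes in 7 lists of mechanosensing, Hippo-YAP and calcium signalling, 25 were listed in the table. Apart from Piezo1, Pkd1 and Vgll4, 22 were listed, of which 1 passed the unadjusted thresholds with a higher share, where 11.3% of all listed genes did, and 0 with a lower one. Their median log2 share ratio was 0.10, against 0.14 over all listed genes. The remaining genes of the lists, among them Yap1, Wwtr1, Tead1, Pkd2 and Ccn2, were not analysed here.

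Among 33 genes of mechanically gated and related channels, 6 were listed, Piezo1 and Pkd1 among them. All 6 had a positive log2 share ratio (median 0.47), as 64.1% of all listed genes did. Tmem63b, which encodes a channel opened by osmotic stretch, passed the unadjusted thresholds. It had shares of 109 and 182 in exercise, against 75.6 and 60.0 in sedentary bone. Its log2 share ratio was 1.10 ± 0.43 (edgeR unadjusted p = 0.0458, adjusted p = 0.418), and 0.68 without exercise replicate 2. Pkd1l3, a polycystin family member known from taste cells, had few counts, with 61.01 and 274.01 in exercise, against 18 and 10 in sedentary bone (log2 1.64 ± 0.66, unadjusted p = 0.0509 in edgeR). The channel kinase gene Trpm7 (0.37 ± 0.27) and P2rx7, which encodes an ATP-gated channel (0.39 ± 0.35), did not pass. Trpm7, like Piezo1, stood at sedentary level in exercise replicate 1, with a share of 617 there and 1030 in replicate 2, against 674 and 600 in sedentary bone. Leaving out exercise replicate 2 turned Trpm7 to -0.05 on the log2 scale.

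The list of YAP, TAZ, TEAD and cofactors had 3 of 20 genes in the table, Vgll4, Med12 and Arid1a. Med12, a subunit of the Mediator kinase module, had shares of 685 and 1170 in exercise, against 598 and 621 in sedentary bone (log2 0.61 ± 0.27, unadjusted p = 0.0716 in edgeR). Leaving out exercise replicate 2 gave 0.17 for Med12, and leaving out exercise replicate 1 gave 0.94. Arid1a, a subunit of the SWI/SNF remodelling complex, had a log2 share ratio of 0.09 ± 0.14, which was -0.02 with DESeq2 size factors. Upstream, 2 of 26 Hippo genes were listed, the TAO kinase genes Taok2 (-0.18 ± 0.14) and Taok3 (-0.07 ± 0.14), and neither passed. Of 25 YAP-TEAD target genes 3 were listed, Cdk6 (0.11 ± 0.15), Asap1 (-0.03 ± 0.15) and Dock5 (-0.10 ± 0.17), and 0 of them passed. Asap1 and Dock5 turned to 0.03 and 0.05 without exercise replicate 2.

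Among the partners of polycystins and the cilium, 3 of 14 genes were listed and 0 passed. Adcy6, an adenylyl cyclase gene, had a log2 share ratio of 0.29 ± 0.14, Tsc1, which restrains mTOR signalling with Tsc2, of 0.29 ± 0.35 (-0.24 without exercise replicate 2), and Inpp5e, a ciliary lipid phosphatase gene, of 0.35 ± 0.35. Calcium and NFAT signalling, which lies downstream of Piezo1, had 6 of 30 genes listed, with a median log2 share ratio of -0.04 and 0 calls. The store-operated channel gene Orai2 had a ratio of 0.24 ± 0.14, the osmotic stress factor Nfat5 of 0.28 ± 0.32 (-0.25 without exercise replicate 2), the calcium pump gene Atp2b4 of 0.10 ± 0.19 (-0.15 without exercise replicate 2 and -0.01 with DESeq2 size factors), the inositol trisphosphate receptor gene Itpr2 of -0.17 ± 0.18, the kinase gene Camkk2 of -0.30 ± 0.16 and the phospholipase gene Plcg2 of -0.31 ± 0.23. Of 18 load-responsive osteocyte genes, Sost (0.09 ± 0.15, and -0.01 with DESeq2 size factors) and the Wnt coreceptor gene Lrp5 (-0.09 ± 0.21, and 0.04 without exercise replicate 2) were listed, and neither passed.

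**Figure D4:**
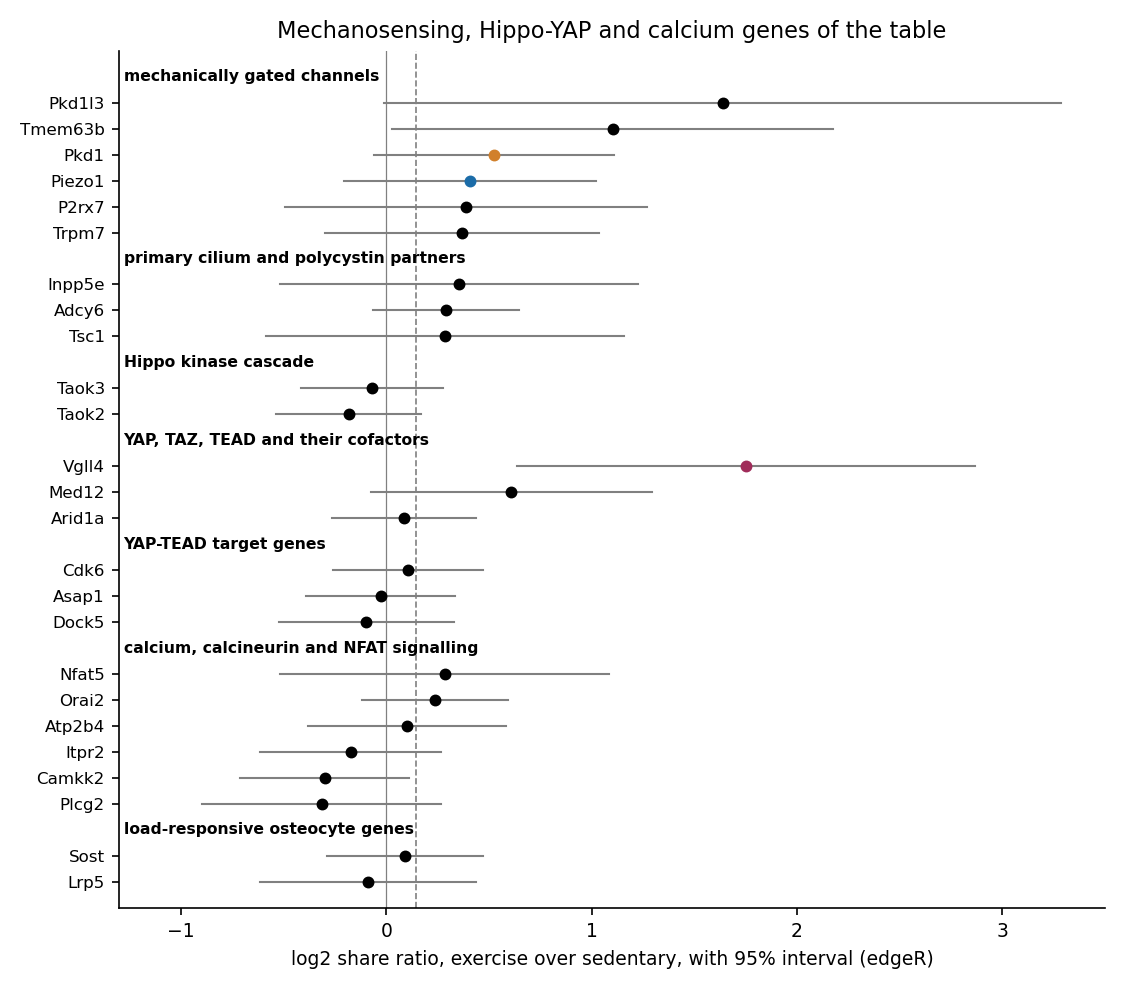
Log2 share ratio of exercise over sedentary bone for the 25 listed genes of 7 pathway lists, with 95% intervals from edgeR; Piezo1, Pkd1 and Vgll4 are coloured. The solid line marks 0 and the dashed line the median of all listed genes (0.14); the intervals of Vgll4 (0.64 to 2.87) and Tmem63b lie to the right of 0.

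The genes whose pattern over the 4 libraries was most like that of each gene were found by the distance between log2 shares, each centred on its own mean, among 929 other named genes averaging at least 100 counts. Piezo1 and Pkd1 were close to each other, at a distance of 0.15, against medians of 0.63 and 0.66 over all genes ranked. Other genes were closer still, since Pkd1 ranked 22 of 929 from Piezo1, and Piezo1 ranked 17 from Pkd1. Vgll4 lay 1.38 from Piezo1 and 1.28 from Pkd1. Vgll4 thus ranked 895 of 929 genes from Piezo1 and 892 from Pkd1, among the genes least like them. The median distance to Vgll4 was 1.82, so most genes lay far from it, and from Vgll4 Pkd1 ranked 88 and Piezo1 111. The 5 genes nearest to Piezo1 were Gabpb2, Cdkl1, Mdm4, Myh10 and Mysm1, at distances of 0.04 to 0.08. Mdm4 encodes an inhibitor of p53 and Myh10 a nonmuscle myosin heavy chain. Those nearest to Pkd1 were Syne2, Lrrk2, Prpf8, Dcp1a and Tirap (0.07 to 0.11), of which Syne2 encodes a nuclear envelope protein that links to actin. Nearest to Vgll4 were Srp54b (0.16), then Golm1, Tstd2, Tmem131 and Sik2 (0.58 to 0.64). Srp54b, which belongs to a family of near-identical copies and is uncertain for that reason, had shares of 370.0 and 649 in exercise, against 142 and 184 in sedentary bone. With 4 libraries such likeness is a description of these values.

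All 3 genes have fractional counts, as 579 of the 1175 genes do. In the annotation, 2441 bases of Piezo1 exons (24.6%) lie over exons of Ctu2 on the other strand, and 693 bases of Pkd1 exons (4.0%) over Tsc2. Vgll4 overlaps no annotated gene and ends 14 bases from Atg7. Whether counting used strand is not given in the sources used here, and the part of reads from Ctu2 and Tsc2 in these counts was not tested. The immunoglobulin gene Ighm differed between the exercise libraries, with a share of 41100 in replicate 1 and 9160 in replicate 2, against 20200 and 20400 in sedentary bone. It made up nearly all of the summed share of the 3 listed B lymphocyte markers (42260 and 10520 in exercise, against 21500 and 21790 in sedentary bone). The other two were higher in exercise replicate 2, Pax5 with 620.0 in replicate 1 and 789 in replicate 2, and Cd22 with 489 and 567. The part of Ighm in the difference of Piezo1, Pkd1 and Vgll4 between the exercise libraries was not tested.

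**Figure D5:**
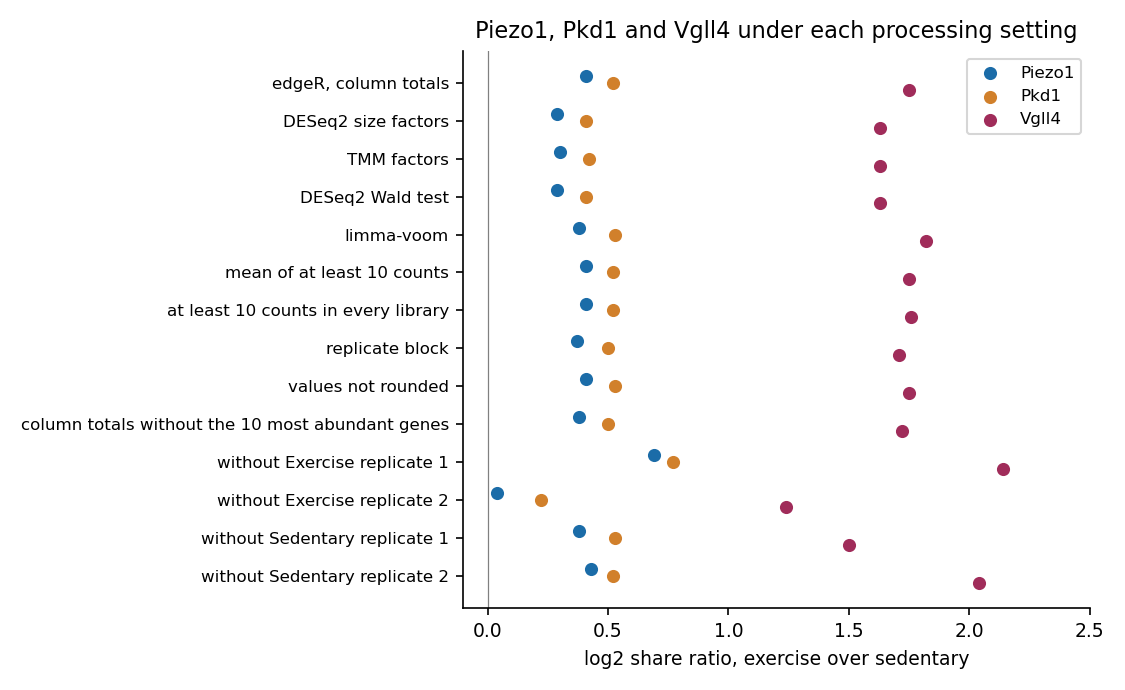
Log2 share ratio of exercise over sedentary bone for Piezo1, Pkd1 and Vgll4 under each test, scaling, filter and left-out library tried. All values are above 0; those of Piezo1 run between 0.04 without exercise replicate 2 and 0.69 without exercise replicate 1, and those of Vgll4 between 1.24 and 2.14 for the same libraries.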

How the data were processed

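RNA of flushed bone was sequenced by the authors as UMI-tagged libraries. Per the labels, reads were mapped to mm10 with STAR and counted with HTSeq. The bulk RNA-seq methods of the study add removal of duplicates by UMI and calls with DESeq2. The authors deposited estimated counts per gene, partly with decimals and without scaling. Tool versions, the counting annotation, the strand setting and the rule that chose the 1175 genes are not stated in any source used here.

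The estimated counts were rounded, and all 1175 genes were fitted in edgeR 4.0.16 (quasi-likelihood test, R 4.3.3), exercise over sedentary, with no covariate, column totals as library sizes and Benjamini-Hochberg adjustment. Thresholds were an adjusted p of 0.05, or the study's unadjusted p of 0.05 with an absolute log2 ratio over 0.25. Standard errors were derived from the ratio and its F statistic. Other settings were DESeq2 1.42.0 (its size factors, and its Wald test), TMM scaling, limma-voom (limma 3.58.1), filters at 10 counts, the replicate block and each library left out. Unrounded values, and totals lacking the 10 most abundant genes, were chosen after seeing the data.

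The 3 genes and the lists were chosen with earlier results of these data known. Named genes were these, every listed pathway gene, the 5 nearest genes to each (pseudocount 0.5) and listed neighbours. Marker genes came from the marker lists. Intervals of counts are exact (Clopper-Pearson, 95%) and cover counting error only. The fit was also run on simulated data with 4-fold changes in both directions and a common spread for all genes. At an adjusted p under 0.05 it recovered 92.5% of the changed genes, with a mean of 11.2 false calls per run. In the deposited data all genes had higher exercise counts and spread differed by gene, so these rates may not hold there.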

Additional observations from a re-analysis of the deposited data

How the results depend on the processing

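At the unadjusted thresholds 1 of the 3 genes, Vgll4, was called. That number was 0 with limma-voom (1.82 for Vgll4 on the log2 scale), where 68 of the 1175 genes were called. It rose when exercise replicate 1 was left out and fell when sedentary replicate 1 was left out. The number over all listed genes rose and fell in the same way. With each library left out, the log2 share ratio of Piezo1 ran from 0.04 to 0.69, that of Pkd1 from 0.22 to 0.77 and that of Vgll4 from 1.24 to 2.14. The higher values came without exercise replicate 1 and the lower ones without exercise replicate 2. Genes past an adjusted p of 0.05, 4 in edgeR, numbered 12 with the replicate block, 36 by the Wald test of DESeq2 and 0 by limma-voom. Leaving out single libraries gave 0 to 651. Genes at the unadjusted thresholds, 134 in edgeR, of which 133 were higher, numbered 68 by limma-voom and between 44 and 650 when single libraries were left out. A group left with 1 library is assumed to vary like the other group. With DESeq2 size factors the split was 121 higher and 21 lower. The cause was not tested. Whether replicate numbers pair the libraries is not known. Deviations from the group means in the replicate 1 libraries of both groups had a correlation of -0.05 over genes. With 2 libraries per group this cannot decide the question. The replicate block gave log2 share ratios of 0.37 for Piezo1, 0.50 for Pkd1 and 1.71 for Vgll4. Of the 5 nearest genes, 4 of those of Piezo1 and all of those of Pkd1 and Vgll4 were again nearest with a pseudocount of 5. Library totals are unknown, which limits each direction of a share, and 2 libraries per group limit each test.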

Other observations

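Per kilobase of annotated exon, the order of the 3 genes differed between the groups. The mean share was 66.1 per kilobase for Piezo1, 38.5 for Vgll4 and 22.4 for Pkd1 in exercised bone, and 50.0 for Piezo1, 15.6 for Pkd1 and 11.5 for Vgll4 in sedentary bone. These levels assume that reads fall along the whole transcript, which is not stated for UMI-tagged libraries.

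Rnf166, a ubiquitin ligase gene 5634 bases from Piezo1 on the same strand and the only listed neighbour of the 3 genes, had 880 and 1847.24 counts in exercise, against 444 and 436 in sedentary bone. Its log2 share ratio was -0.14 ± 0.15 (edgeR unadjusted p = 0.411).

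Among cell type markers, the platelet receptor gene Gp1ba had a higher share in exercise at the unadjusted thresholds, with 520 and 461 in exercise, against 256 and 259 in sedentary bone (log2 0.93 ± 0.17, edgeR unadjusted p = 0.0018, adjusted p = 0.211). Alox12, the other listed gene of the 6 megakaryocyte and platelet markers, did not pass (-0.32 ± 0.24). Of the remaining lists, endothelial markers had 1 of 6 genes listed (Vwf), erythroid markers 1 of 8 (Epb42), granulocyte markers 2 of 9 and B lymphocyte markers 3 of 7, and 0 of these passed. Chondrocyte, monocyte and osteoclast, and skeletal muscle markers had 0 genes listed.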
